A study of Rattus norvegicus with 12 samples.

Results

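Npy encodes neuropeptide Y, and its transcript was followed here through 12 whole-blood RNA libraries from adult male rats of the inbred strains Wistar Kyoto (WKY) and Fischer 344 (F344). Npy is 1 of 17337 genes in the count tables and 1 of the 2781 genes that had enough counts to be tested. It was chosen by measured values: its level was higher after chronic restraint stress (CRS) than without stress (NS) in these same libraries. Its restraint values are therefore given as a description, without a test. Tests were kept for the strain comparisons.

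The libraries form 4 groups of 3: WKY after CRS, WKY with NS, F344 after CRS and F344 with NS. Contextual fear conditioning, a task in which a place is paired with shock, was given to all rats at 70 to 90 days of age, and 4 weeks in the home cage followed. The CRS rats were next held in restraint bags for 2 hours a day over 2 weeks, and the NS rats were left in the home cage. Every rat, stressed or not, was conditioned again and killed by decapitation 24 hours later, so both fear conditioning rounds are shared by the controls. The labels do not state that each library came from a different rat. The p-values therefore measure the spread between libraries, which may be partly technical.

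Neuropeptide Y is made as a precursor that is cut and amidated into a short peptide, and it acts on a family of G protein-coupled receptors named Y receptors. In the brain it is known for effects on feeding and on the response to stress, and in the periphery sympathetic nerves and adrenal chromaffin cells release it with catecholamines. In rats and mice, megakaryocytes and platelets are also known to carry it. Whole blood is a mixture, so fewer cells of a type and less RNA per cell cannot be told apart in these libraries.

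Genes received 1691956 to 3846263 counts per library, but the 3 most abundant features took 88.9% to 94.6% of these and left 90796 to 419789 counts for all other genes. The shallowest library was NS F344 replicate 3. NS F344 replicates 2 and 3 had the fewest Npy counts of the 12 libraries, with 35 and 17. Markers of the expected blood cells were present. Summed markers stood at 772 to 1751 CPM for erythroid cells, 57.0 to 163 CPM for monocytes, 25 to 59.7 CPM for neutrophils and 28.9 to 59.7 CPM for T cells. CPM are counts scaled to library size, here after TMM, a method that corrects that size for a few very abundant transcripts. They are not divided by gene length.

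The RefSeq annotation of the rat assembly GRCr8 places Npy, gene ID 24604, on the forward strand of chromosome 4, from 80212111 to 80219310. No other annotated gene overlaps it there, so reads shared with a neighbour were not at issue in that annotation. The reads themselves were handled on the older build rn6, and the GRCr8 position is not converted to it. The promoter window of 250 bases before and 50 bases after the annotated start, chr4:80211861-80212160, is shown because it is the regulatory sequence at the annotated start of the transcript. Capitals mark the only match to the letters GGGCGG, a GC box of the kind bound by Sp1 family factors.

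Npy promoter, GRCr8, forward strand: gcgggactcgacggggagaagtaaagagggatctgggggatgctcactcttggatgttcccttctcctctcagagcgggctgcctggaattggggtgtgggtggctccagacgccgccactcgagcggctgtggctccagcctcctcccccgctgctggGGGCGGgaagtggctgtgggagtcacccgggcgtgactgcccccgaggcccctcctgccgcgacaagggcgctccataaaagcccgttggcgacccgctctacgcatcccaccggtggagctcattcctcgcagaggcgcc

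The window is 67.7% G and C, against a median of 51.7% over 33469 windows of the same length. Motifs were searched on both strands, and the marked letters overlap no other match. GGGCGG occurs in 33.1% of all windows. The Npy window holds none of the other 4 letter strings searched. AGATAA, a core bound by GATA factors, occurs in 11.6% of all windows. The cyclic AMP response element TGACGTCA occurs in 1.83% of them. AGAACA, a part of glucocorticoid response elements, occurs in 20.7%, and the TATA box letters TATAAA occur in 14.2%.

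Npy was readily detected in blood. It received 2090 counts in all, at least 17 in every library. The counts were 157, 210 and 205 in CRS WKY replicates 1, 2 and 3, and 147, 125 and 51 in NS WKY replicates 1, 2 and 3. In F344 they were 369, 264 and 318 in CRS replicates 1, 2 and 3, and 192, 35 and 17 in NS replicates 1, 2 and 3.

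Scaled by TMM, Npy stood at 39.8, 90.6 and 66.9 CPM in CRS WKY replicates 1, 2 and 3, and at 33.6, 40.7 and 19.6 CPM in NS WKY replicates 1, 2 and 3. In WKY the groups overlapped: CRS replicate 1 lay just under NS replicate 2, while CRS replicates 2 and 3 lay above all 3 NS libraries. The group averages were 65.8 ± 25.4 CPM for CRS WKY and 31.3 ± 10.7 CPM for NS WKY (SD, n = 3 each). The fitted difference was log2 1.06 (SE 0.34).

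In F344, Npy stood at 74.0, 89.5 and 64.1 CPM in CRS replicates 1, 2 and 3, and at 52.6, 21.2 and 19.3 CPM in NS replicates 1, 2 and 3. Here every CRS library lay above every NS library, with NS replicate 1 well above the other NS libraries. The averages were 75.9 ± 12.8 CPM for CRS F344 and 31.0 ± 18.7 CPM for NS F344 (SD, n = 3 each), and the fitted difference was log2 1.21 (SE 0.35). It was 1.91 without NS F344 replicate 1. Without NS replicates 2 and 3, the shallowest of their group, it was 0.60, and that group is then 1 library assumed to vary like the others.

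**Figure D1:**
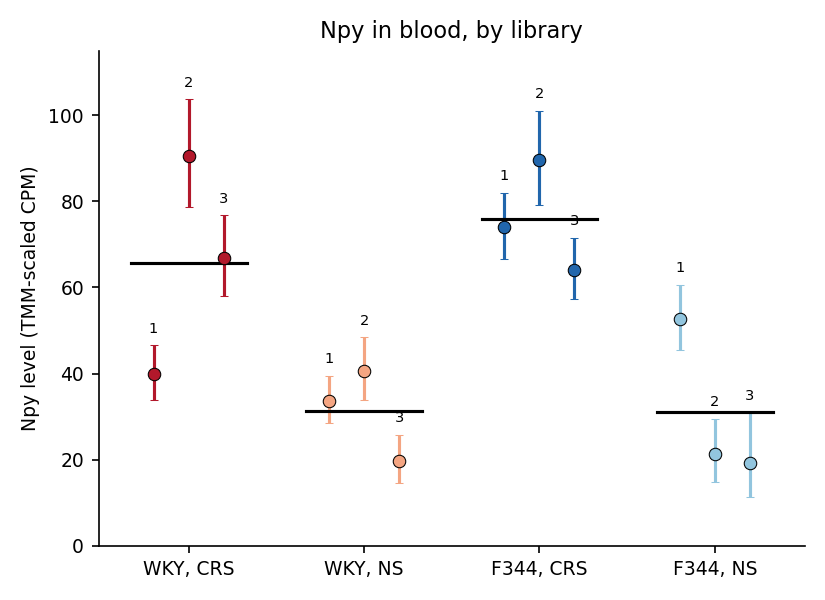
Npy level in TMM-scaled CPM (y axis) for each library, by strain and treatment (x axis); small numbers are replicates, vertical bars are exact 95% Poisson intervals that cover counting error only, and horizontal lines are group means. Both CRS groups average above 65 CPM and both NS groups near 31 CPM, and the groups overlap in WKY but not in F344.

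These patterns were the reason Npy was chosen, and nothing is read from them. As background, 6.22% of the 2781 tested genes had every CRS library above every NS library in F344, and 4.89% had it in WKY. In both strains at once 0.288% did so, Npy not among them, and 0.431% had every CRS library below every NS library. Averaged over both strains, the fitted Npy difference was log2 1.13 (SE 0.24). At an adjusted p under 0.05, edgeR called 0% of genes for CRS in F344 and 0% in WKY, and DESeq2 called 0 in each. Without adjustment, p was under 0.05 for 131 genes in F344 and 161 in WKY. For the mean of strains edgeR called 0.036% of genes, which is Ppp4r2 alone, and DESeq2 called 3 genes.

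The denominator mattered in F344. With the 3 most abundant features taken out of the total, Npy took 107, 93.6 and 75.8 per 100000 in CRS F344 replicates 1, 2 and 3, and 87.1, 17.9 and 18.7 per 100000 in NS F344 replicates 1, 2 and 3. On this scale NS replicate 1 lay above CRS replicate 3, so the F344 groups overlapped. In WKY the shares were 49.2, 90.2 and 70.0 per 100000 in CRS replicates 1, 2 and 3, and 42.3, 56.4 and 29.9 per 100000 in NS replicates 1, 2 and 3, again with 1 CRS library inside the NS range.

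Npy varied widely among libraries of the same group. The coefficient of variation was 38.6% in CRS WKY, 34.3% in NS WKY, 16.9% in CRS F344 and 60.2% in NS F344. Counting error alone would give 7.40%, 9.84%, 5.8% and 13% in the same order, less than the spread in every group. The pooled SD within groups was 0.57 on the log2(CPM + 1) scale. Among the 40 other tested genes whose mean level lay within 1.5-fold of the Npy mean of 51.0 CPM, the median SD was 0.36, and 95% of them varied less than Npy.

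Strain was the comparison that the choice of Npy did not use. Its level did not differ detectably between strains. With NS, the WKY and F344 groups averaged almost the same, and the WKY libraries lay inside the wide F344 range. The difference was log2 -0.059 (SE 0.35, 95% interval -0.77 to 0.66, edgeR adjusted p = 0.975). It rested on single libraries: it was 0.64 without NS F344 replicate 1, 0.21 without NS WKY replicate 3 and -0.69 without NS F344 replicates 2 and 3. After CRS, the lowest library was WKY replicate 1 and the highest WKY replicate 2, with all 3 F344 libraries between them, and the difference was log2 -0.21 (SE 0.33, 95% interval -0.89 to 0.46, edgeR adjusted p = 0.881). Averaged over treatments it was log2 -0.14 (SE 0.24, 95% interval -0.63 to 0.36, edgeR adjusted p = 0.868).

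An exact permutation of strain labels within treatment, two-sided on the log2(CPM + 1) values, gave a difference of -0.084 and p = 0.78 over 400 arrangements, where the smallest p possible is 0.005. The mean interval excludes a strain difference beyond log2 -0.63 or 0.36, but not a smaller one. For background, edgeR called 0.683% of the tested genes between strains with NS, 1.4% after CRS and 3.74% for the mean of treatments. Genes called higher in WKY made up 0.324% with NS, 0.683% after CRS and 2.12% for the mean. Ordered by level, the groups ran CRS F344, CRS WKY, NS WKY and NS F344. The first pair and the last pair of neighbours each differed by less than the SD of either group, and the middle pair, CRS WKY and NS WKY, overlapped by 1 library.

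The difference between strains in the restraint response is built from the contrasts that brought Npy forward, so its test is given with that limit. The response was log2 -0.15 in WKY relative to F344 (SE 0.49, 95% interval -1.14 to 0.83, edgeR adjusted p = 0.993). For this contrast edgeR called 0% of genes and DESeq2 called 0, while 106 genes had an unadjusted p under 0.05 in edgeR.

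**Figure D2:**
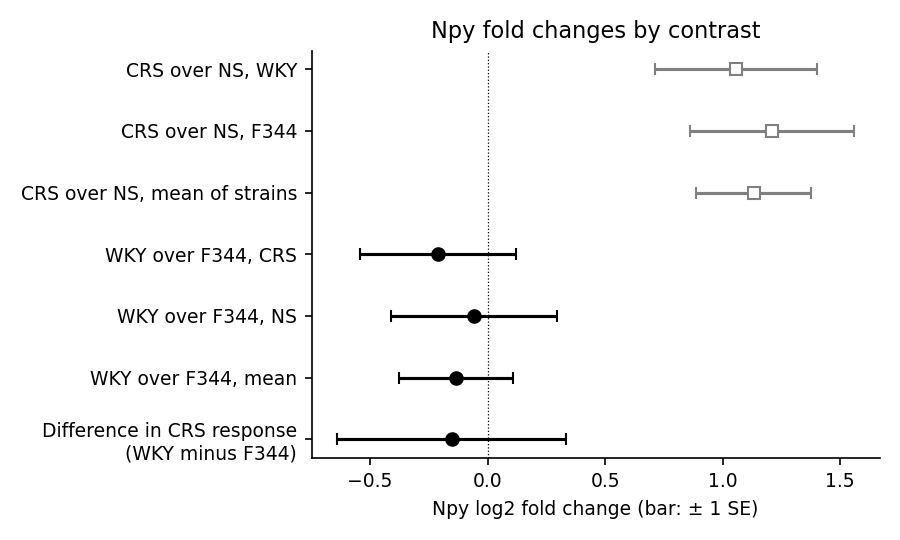
Fitted Npy log2 fold change (x axis, bars are ± 1 SE) for each contrast (y axis); open grey squares are restraint contrasts, which chose the gene and carry no test, and black circles are tested contrasts. The restraint values lie at 1.06, 1.21 and 1.13, and all 4 tested values lie between -0.21 and -0.059.

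The relatives and receptors of neuropeptide Y had almost no counts in blood. Of its family, peptide YY (Pyy) had 0 counts in all 12 libraries, which allows at most 3 counts in all, and pancreatic polypeptide (Ppy) had 3. Among receptors, Npy1r had 6 counts over the 12 libraries, Npy5r had 5, and Npy2r and Npy4r had 1 each. None of these was testable at this depth, and Npy6r was not analysed here. Of the prohormone convertases that cut neuropeptide precursors in neurons and endocrine cells, Pcsk1 had 3 counts and Pcsk2 had 1. Carboxypeptidase E (Cpe), which trims the cut peptide, had 5 counts, and Pam, which amidates it, had 29.

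Furin, a convertase of the secretory pathway found in most cells, was well measured. It averaged 95.6 ± 41.6 CPM in CRS WKY, 85.3 ± 21.3 CPM in NS WKY, 87.9 ± 14.6 CPM in CRS F344 and 121 ± 49.7 CPM in NS F344 (SD, n = 3 each). Its groups overlapped throughout, and its strain difference was log2 -0.19 (edgeR adjusted p = 0.786). Dpp4, the peptidase that shortens neuropeptide Y and changes its receptor preference, had 39 counts, below the limit for testing. Prep, prolyl oligopeptidase, averaged 1.60 ± 0.57 CPM in CRS WKY and 4.05 ± 3.16 CPM in NS WKY, and 1.66 ± 0.33 CPM in CRS F344 and 4.18 ± 2.21 CPM in NS F344.

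Sympathetic and chromaffin genes were at the floor. Tyrosine hydroxylase (Th), the first enzyme of catecholamine synthesis, had 5 counts over 12 libraries, dopamine beta-hydroxylase (Dbh) had 2, the granule protein genes Chga and Chgb had 2 each, and Pnmt, which makes adrenaline, had 0. Summed over the 5 markers, no library exceeded 1.02 CPM. Neuronal markers were low too: the interneuron peptide Sst had 0 counts, Agrp, which is made with Npy in the hypothalamus, had 10, and Gap43, a growth-associated protein gene, was the only 1 of 12 neuronal markers with enough counts to be tested. Gap43 was called lower in WKY for the mean of treatments (edgeR, log2 -1.30), where 3.74% of all tested genes were called in either direction. Muscle markers summed to 1.77 to 12.7 CPM, and 0 of 6 had enough counts to be tested. Whether tissue was carried over at decapitation was not tested.

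Slc18a2, the vesicular monoamine transporter that platelets use to load serotonin, had 67 counts in all and averaged 1.76, 1.89, 1.64 and 1.42 CPM in CRS WKY, NS WKY, CRS F344 and NS F344.

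Of the stress-related regulators, the glucocorticoid receptor Nr3c1 (log2 0.21), the coactivator Crebbp (log2 -0.059), the stress factor Atf4 (log2 -0.14), the neuronal gene repressor Rest (log2 -0.47) and the immediate early gene Nr4a1 (log2 0.50) did not pass for the strain mean. In all, 53 genes were listed beside Npy, 51 were in the tables and 8 had enough counts to be tested. Across 7 contrasts edgeR called 0 of these 8 and DESeq2 called 0, where edgeR called 0.837% of the 19467 gene and contrast pairs over all tested genes. Of the 56 pairs of the listed genes, 3 had an unadjusted p under 0.05, all of them restraint contrasts of Prep. That is 5.36% of these pairs, against 8.07% over all tested genes.

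Platelet genes were set beside Npy because platelets are known to carry it, but the list was chosen with earlier results of these data known. Of 24 listed platelet and megakaryocyte markers, 19 were in the tables, 18 had counts and 13 had enough to be tested. The most abundant by mean level were Pf4, the chemokine platelet factor 4, at 22.9 CPM, the fibrinogen receptor subunit Itgb3 at 22.1 CPM, the adhesive protein gene Thbs1 at 15.6 CPM, the myosin light chain Myl9 at 14.4 CPM and Vwf, von Willebrand factor, at 13.8 CPM. Gp1bb had 0 counts.

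The summed platelet markers were 159, 290 and 230 CPM in CRS WKY replicates 1, 2 and 3, and 173, 167 and 89.9 CPM in NS WKY replicates 1, 2 and 3. They were 143, 156 and 138 CPM in CRS F344 replicates 1, 2 and 3, and 126, 81.3 and 73.8 CPM in NS F344 replicates 1, 2 and 3. In 3 of the 4 groups, the libraries ran in the same order for Npy and for the platelet sum. In NS WKY, replicate 3 was lowest for both, and replicates 1 and 2 changed places. All 13 tested markers had positive restraint values in each strain, with a median of log2 0.61 in WKY and 0.52 in F344, against 0.016 and 0.014 over all tested genes. Whether the platelet share of blood RNA accounts for the Npy difference was not tested.

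**Figure D3:**
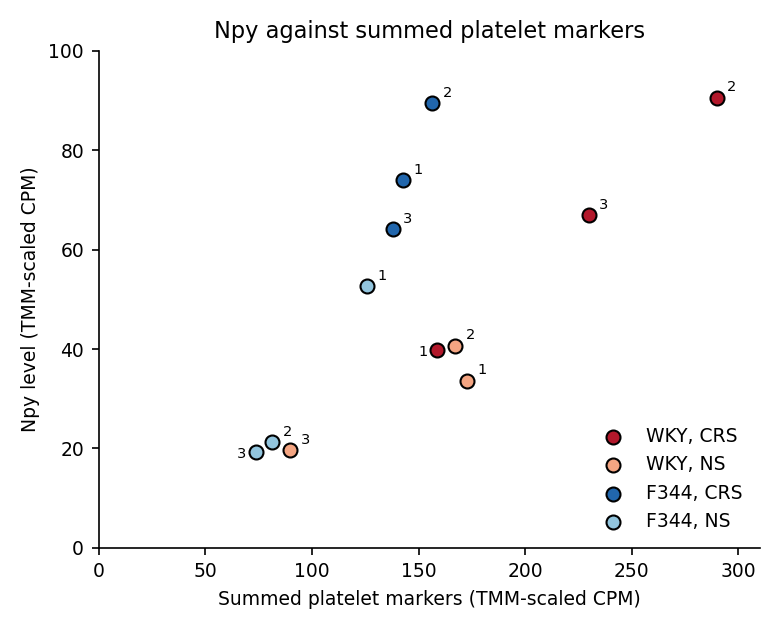
Npy level (y axis) against the sum of the platelet markers (x axis), both in TMM-scaled CPM, with 1 point per library, coloured by group and numbered by replicate. F344 libraries carry more Npy than WKY libraries of a similar platelet sum, except at the low end, where NS WKY replicate 3 and NS F344 replicates 2 and 3 lie close together near 20 CPM of Npy. Treatments are mixed in this comparison. At sums of 126 to 173 CPM, the F344 libraries are CRS replicates 1, 2 and 3 and NS replicate 1. The WKY libraries there are CRS replicate 1 and NS replicates 1 and 2.

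Over the 12 libraries, log2 Npy and the log2 platelet sum had a Pearson's r of 0.78 and a Spearman's rho of 0.62, and r was 0.66 without the 2 libraries farthest from the median platelet sum. These values are a description: the points share treatment groups and the scaling of each library. With each library taken as its deviation from its own group mean, so that restraint and strain play no part, r was 0.95. It lay between 0.93 and 0.97 when each library was left out in turn. The same value for 1070 other genes that averaged at least 5 CPM had a median of 0.035, and none of them exceeded that of Npy, while up to 2 did so when a library was left out and 3 did so without NS F344 replicates 2 and 3. Summed markers of other cells gave r within groups of -0.40 for erythroid cells, 0.38 for neutrophils, -0.12 for monocytes and -0.025 for T cells. For library depth without the 3 top features, r within groups was 0.31. Over the 6 CRS libraries alone, without regard to strain, r was 0.35 for the platelet sum and 0.79 for the erythroid sum. Over the 6 NS libraries it was 0.79 for the platelet sum and -0.72 for the erythroid sum.

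Member by member, the same held for platelet genes that averaged at least 5 CPM. The 11 such markers had a median r of 0.70 with Npy over the 12 libraries, from 0.49 for the tetraspanin Cd9 to 0.84 for the activating receptor Clec1b, against a median of 0.088 over 1081 genes. As deviations from group means their median r was 0.77, against 0.046 over all these genes. In this measure Itgb3 reached 0.93, Thbs1 0.91 and Vwf 0.89, and Pf4 was lowest at 0.42. Some markers of other cells lay above the lower platelet genes, with 0.68 for Csf1r, the receptor for macrophage colony-stimulating factor, 0.68 for Cd4 and 0.62 for S100a9, a neutrophil calcium-binding protein gene. Without NS F344 replicates 2 and 3, the median r of the 11 platelet markers over the remaining libraries was 0.55, against 0.053 over all these genes. In this plain measure Cd9 went from 0.49 over the 12 libraries to 0.055 without them. Thbs1 went from 0.52 to 0.16 and Itgb3 from 0.65 to 0.25, so their plain r rests in part on those 2 libraries. Among the other cell markers, Csf1r went from 0.55 to -0.063, Cd4 from 0.47 to -0.49 and S100a9 from 0.55 to -0.21. The r of deviations from group means is not given for single genes without those 2 libraries. Of the 11 markers, 7 were among the 54 genes, or 5%, with the highest r over 12 libraries, and 0 of 9 erythroid markers were.

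The ratio of Npy to the counts summed over the 18 detected platelet markers needs no library scaling. Npy had 25.1, 31.3 and 29.1 counts per 100 platelet marker counts in CRS WKY replicates 1, 2 and 3, against 51.8, 57.3 and 46.5 in CRS F344 replicates 1, 2 and 3. With NS it had 19.4, 24.3 and 21.8 in WKY replicates 1, 2 and 3, against 41.8, 26.1 and 26.2 in F344 replicates 1, 2 and 3. Every WKY library lay below every F344 library of the same treatment. After CRS the exact 95% counting intervals of the WKY libraries ended at 36.5 at most and those of the F344 libraries began at 40.6 at least, whereas with NS the intervals of F344 replicates 2 and 3 covered all 3 WKY values.

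This strain difference in the ratio averaged log2 -0.68, with -0.87 after CRS and -0.49 with NS. The NS value was -0.26 without F344 replicate 1 and -0.94 without F344 replicates 2 and 3. The ratio was set up after the platelet and Npy levels were known, so it has no test. It is not particular to Npy: of 2768 tested genes that are not platelet markers, 5.67% had every WKY library below every F344 library in both treatments when divided by the same sum, 12.5% with NS and 28.7% after CRS. The denominator itself differed, since the platelet sum averaged 226 ± 65.7 CPM in CRS WKY and 146 ± 9.56 CPM in CRS F344, and 143 ± 46.4 CPM in NS WKY and 93.6 ± 28.1 CPM in NS F344 (SD, n = 3 each). Of the 13 markers, 12 had a positive log2 value for WKY over F344, with a median of 0.49 against -0.0088 over all tested genes, and the exception was Gp1ba at -0.43. edgeR called 4 of them higher in WKY, namely Pf4, Itgb3, Thbs1 and Cd9, against 2.12% of all tested genes. Without 1 library the number ran from 1 to 5, with Thbs1 called each time, and it was 0 without NS F344 replicates 2 and 3 and 0 with no TMM factor.

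Other cell markers differed by strain along with the platelet sum. Summed monocyte markers ran from 116 to 163 CPM in CRS WKY and from 77.3 to 84.9 CPM in CRS F344, and from 113 to 132 CPM in NS WKY and from 57.0 to 70.1 CPM in NS F344. The strains did not overlap in this sum, but how many of all tested genes separate the strains in CPM was not counted. edgeR called 2 of 4 tested monocyte markers higher in WKY, against 2.12% of all tested genes. They were Lyz2, a lysozyme, and Cybb, a subunit of the phagocyte oxidase. Both calls held with any 1 library left out, though with no TMM factor only Cybb was called. Lyz2 made up most of the sum, at 118 CPM in CRS WKY, 60.9 in CRS F344, 97.7 in NS WKY and 47.5 in NS F344. The other tested monocyte markers, not called in the main fit, differed in direction: Csf1r was log2 0.52 and Fcgr1a log2 -0.43 for the mean of treatments. Summed T cell markers were lower in WKY, from 28.9 to 39.8 CPM in CRS WKY and from 43.4 to 54.0 CPM in CRS F344, and from 34.5 to 40.9 CPM in NS WKY and from 44.3 to 59.7 CPM in NS F344. Of 9 tested T cell markers edgeR called 1, the transcription factor gene Lef1, lower in WKY. Over all tested genes 3.74% were called in either direction. The Lef1 call was lost with no low count filter, with no TMM factor, by DESeq2 and on leaving out most single libraries. Cd4 alone of the 9 went the other way, at log2 0.47, and was called higher in WKY without NS F344 replicate 1. The part of blood cell composition in the Npy ratio was not tested.

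Between treatments, the ratio averaged 28.5 ± 3.13 in CRS WKY and 21.9 ± 2.44 in NS WKY, and 51.9 ± 5.39 in CRS F344 and 31.4 ± 9.06 in NS F344 (SD, n = 3 each). The means differed 1.30-fold in WKY and 1.65-fold in F344, compared with 2.1-fold and 2.44-fold for Npy in CPM and 1.58-fold and 1.56-fold for the platelet sum. Every CRS library lay above every NS library of its strain in this ratio. Of the 2768 genes, 2 (0.0723%) show this in both strains, and Npy is 1 of them. However, CRS WKY replicate 1 and each of NS WKY replicates 2 and 3 lay within each other's counting intervals. So did CRS F344 replicate 3 and NS F344 replicate 1. These restraint values come from the libraries and the contrast that chose Npy, and carry no test. Nothing is read from the share of genes beside them either.

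**Figure D4:**
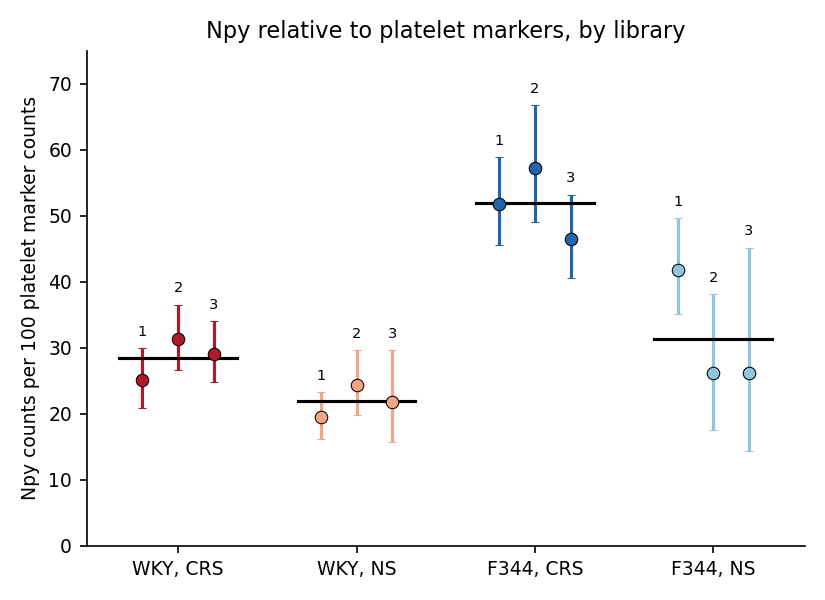
Npy counts per 100 counts of the summed platelet markers (y axis) for each library, by strain and treatment (x axis); small numbers are replicates, vertical bars are exact 95% counting intervals and horizontal lines are group means. CRS WKY libraries sit between 25.1 and 31.3 and CRS F344 libraries between 46.5 and 57.3.

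Genes with a pattern most like Npy were found by Pearson's r of log2(CPM + 1) over the 12 libraries, among 1081 genes with an informative symbol and a mean of at least 5 CPM. The 8 highest were Gapdh, the glycolytic enzyme (r = 0.90), Anxa11, a calcium-dependent phospholipid-binding annexin (0.90), Actg1, a cytoplasmic actin (0.89), Tsc22d1, a leucine zipper regulator (0.89), Pla2g2a, a secreted phospholipase (0.87), Pdlim1, an actin-associated adaptor (0.86), Clec1b (0.84) and Actb, the other cytoplasmic actin (0.83). Gapdh, Actg1 and Actb have many near-identical copies in the genome, so their counts are uncertain.

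Among these 8 genes, Anxa11 had the highest r for deviations from group means, at 0.93. It averaged 8.96 ± 2.49 CPM in CRS WKY, 6.39 ± 2.35 CPM in NS WKY, 8.55 ± 2.67 CPM in CRS F344 and 5.11 ± 2.26 CPM in NS F344 (SD, n = 3 each). Pla2g2a averaged 10.3 ± 3.22, 5.69 ± 3.71, 9.51 ± 1.93 and 5.36 ± 3.19 CPM in the same order. All 8 genes remained among the 54 highest by Spearman's rho, and 7 of them did so by deviations from group means.

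At the other end, r was -0.77 for Zc3h11a, a nuclear zinc finger gene, -0.79 for Sidt2, a lysosomal membrane protein gene, -0.81 for Scml4, a relative of Polycomb genes, and -0.88 for Ppp4r2, a regulatory subunit of protein phosphatase 4. Ppp4r2 averaged 5.42 ± 0.73 CPM in CRS WKY and 12.7 ± 6.55 CPM in NS WKY, and 4.69 ± 1.24 CPM in CRS F344 and 13.9 ± 2.82 CPM in NS F344. As deviations from group means, the r of Zc3h11a shrank to -0.37 and that of Ppp4r2 to -0.63, while that of Scml4 was -0.82. Nothing about shared function or control follows from these correlations.

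**Figure D5:**
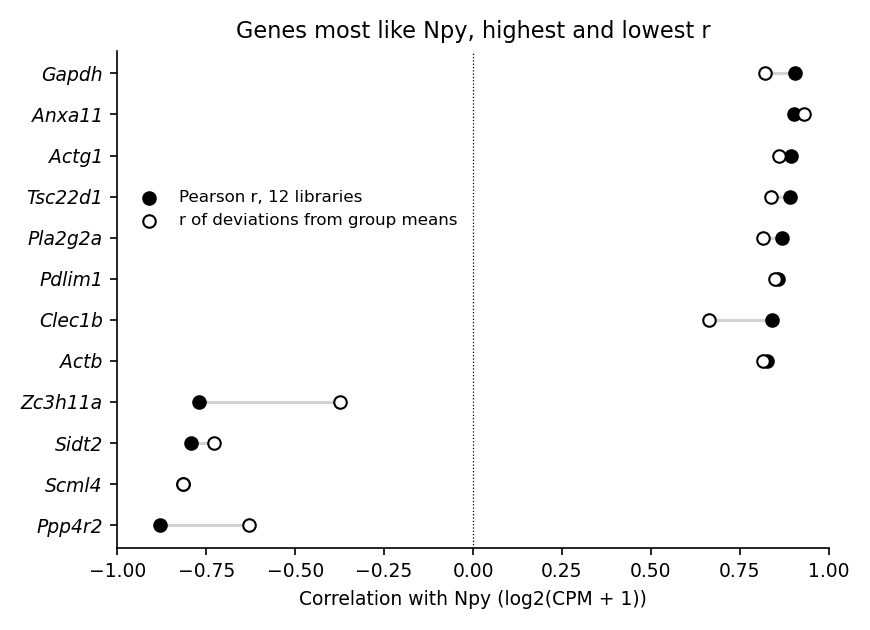
Correlation with Npy (x axis) for the 8 genes with the highest and the 4 with the lowest Pearson's r (y axis), over 12 libraries (filled circles) and for deviations from the 4 group means (open circles). Of the 8, 7 stay above 0.80 in both measures, Clec1b moves to 0.66, and Zc3h11a moves to -0.37.

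Promoter windows were on hand for 7 of the 8 genes most like Npy. Of these, 4 held GGGCGG, 5 held AGAACA, 2 held TATAAA, 1 held AGATAA and 0 held TGACGTCA. Over all windows the shares were 33.1%, 20.7%, 14.2%, 11.6% and 1.83% in the same order. The 7 genes were picked from these data, and no difference from those shares was tested. The Npy window holds only GGGCGG, and a match is a description of letters, not of a bound site.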

How the data were processed

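Whole-blood RNA, collected into PAXgene tubes per the labels' protocols, was sequenced on the Ion Proton in 12 libraries. The deposited files hold raw read counts per gene. Per the submitters' processing notes, cutadapt 1.14, TopHat2 2.1.0, Cufflinks 2.2.1 and build rn6 were used, with no role stated. None of the sources used here gives the counting program, annotation or strand setting. Rows that name no gene, mainly reads ambiguous between features, held 80.9% to 86.6% of all counts and were left out, which lowers genes whose reads were ambiguous.

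Counts were fitted with edgeR 4.0.16 (quasi-likelihood, TMM, filterByExpr with a minimum count of 10) in R 4.3.3. All 12 libraries entered 1 model of 4 group means, and Benjamini-Hochberg adjustment ran over all 2781 genes, with calls at 0.05. A count was worth 0.201 to 1.13 CPM. Libraries of a group differed by 2.78 to 24.8 times sampling noise (chi-square per degree of freedom), so no pair agreed within it. Repeat preparations from the same rat could differ as much. The fit was tested on simulated data. DESeq2 1.42.0 and limma 3.58.1 served as alternatives. Npy, the gene lists and the likeness rule (8 highest and 4 lowest r) were chosen with earlier results of these data known. The ratio to platelet markers was added after the values were seen. Of the 17337 symbols, 14821 were found in RefSeq's GRCr8 table. Results for some listed genes are not reported here.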

Additional observations from a re-analysis of the deposited data

How the results depend on the processing

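Over the alternatives run, Npy passed in none of the strain contrasts or the difference in response (lowest edgeR adjusted p = 0.443, with NS and without NS F344 replicate 1), and the 4 tested values changed sign in places. The value for WKY over F344 with NS was 0.14 with no low count filter, 0.055 with no TMM factor and 0.31 by limma-voom. Leaving out each library in turn, it ran from -0.27 to 0.64, with 0.64 without NS F344 replicate 1, and was -0.69 without both shallowest NS F344 libraries, 2 and 3. It ran from -0.50 to 0.062 after CRS and from -0.27 to 0.22 for the mean of treatments. With no TMM factor the CRS value was -0.65, and without both shallowest libraries the mean was -0.45. The strain difference in response ran from -0.85 to 0.11 and was 0.48 without both shallowest NS F344 libraries. The restraint value in F344 ran from 1.01 to 1.91 by single library and was 0.60 without those 2 libraries. In WKY it ran from 0.77 to 1.33. The cause was not tested.

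Deviations of same-numbered libraries of different groups correlated at a median of 0.039, from -0.093 to 0.21. Pairs with different numbers had a median of -0.015, from -0.18 to 0.13. Whether same-numbered libraries shared a batch was not tested. With a replicate block the Npy values were -0.14 for the strain mean and -0.12 for the difference in response, and neither passed. The genes called for the strain mean numbered 104, against 75 by DESeq2 and 30 to 134 over all alternatives. They numbered 19 with NS (5 to 44) and 39 after CRS (13 to 50), and 0 for the difference in response (0 to 3). The ratio to platelet markers lay between -0.73 and -0.62 with each marker left out and between -0.73 and -0.56 with each library left out, and was -0.90 without both shallowest NS F344 libraries. With a marker left out, the strains did not overlap in 13 of 13 cases after CRS and in 12 with NS. Depth limits the receptors and the convertases Pcsk1 and Pcsk2, whose counts were too few for any comparison.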
